A study of Homo sapiens with 4 samples.

Results

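The 40 genes described here encode MYC, subunits and factors of RNA polymerase I, and proteins that process ribosomal RNA and assemble the ribosomal subunits. They were chosen by name, as the rows of the deposited gene tables that carry these symbols. All 40 were found among 25411 genes, and all 40 were among the 13663 genes that passed the filter on low counts. The data were RNA-seq read counts from BEAS-2B, an established human line of virus-immortalised bronchial epithelial cells. Control cells (2 libraries) were grown for 72 h with no metal added, and cadmium-treated cells (2 libraries) were grown for 72 h with 5 µM CdCl2 in the medium. The labels assign the controls to experiment 1 and the treated cells to experiment 2, so experiment and cadmium cannot be told apart. They do not say whether replicates were separate cultures, so each p-value reflects the variation among these 4 libraries, which may be technical.

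RNA polymerase I transcribes the ribosomal RNA precursor in the nucleolus, from promoters bound by the factor UBTF. Small nucleolar ribonucleoproteins (snoRNPs) modify the precursor, and assembly factors then cut, fold and package it into the small (40S) and large (60S) subunits. MYC is a transcription factor known for driving many of these genes in growing cells, together with its partner MAX. Ribosomal RNA itself was not analysed here, and only the messenger RNAs of this machinery are described.

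Gene-assigned reads numbered 26529403 for control replicate 1, 8609243 for control replicate 2, 29937242 for cadmium replicate 1 and 15537382 for cadmium replicate 2. Every member had at least 116 reads in each library. Metallothionein MT2A, which binds cadmium, had 277 and 378 CPM (reads scaled by TMM-adjusted library size) in control and 3594 and 3313 CPM with cadmium. Of 11 epithelial markers, the keratin genes KRT8 and KRT18 were abundant, while TP63 had 0 reads in all 4 libraries, KRT5 and KRT14 had 1 read each over all libraries together, and CDH1 had 1 to 28 reads per library. Their summed level was between 1205 and 1514 CPM in all 4 libraries, EPCAM and KRT15 rose from low levels, and KRT7 fell by 1.02 on the log2 scale. Summed leukocyte markers (6 genes) were between 6.83 and 11.4 CPM, nearly all of it CD14. Summed endothelial markers (4 genes) were between 0.269 and 0.822 CPM, and summed airway secretory and ciliated markers (5 genes) between 0.538 and 1.47 CPM. Fibroblast and mesenchymal markers (7 genes) summed to 7104 and 5914 CPM in control and 5748 and 5573 CPM with cadmium. Nearly all of this was COL1A1 (4377 and 3536 CPM in control) and VIM (2725 and 2376 CPM in control). COL3A1 and DCN had 0 reads in all 4 libraries, PDGFRA had 0 or 1 per library, LUM 1 to 12 and COL1A2 10 to 58. The nuclear RNAs MALAT1 and NEAT1, whose share can shift with RNA quality, rose by 0.87 and 0.59 on the log2 scale (edgeR adjusted p = 0.00188 and 0.0228), and their part in the results below was not tested.

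Many ribosome biogenesis transcripts were modestly lower with cadmium. MYC was among the 24 members that did not pass the test, and its difference from the other members was not tested. Of the 40 members, 16 fell and 0 rose (edgeR quasi-likelihood test, Benjamini-Hochberg adjusted p under 0.05). Across all tested genes 7.66% were called lower and 8.85% higher. No member was called higher by DESeq2 or limma-voom, or at an unadjusted p under 0.05. The 16 falls were between 22.7% and 47.7%, and the largest were in the large subunit assembly genes RRS1, NOP16, RRP1 and BOP1. The median log2 fold change was -0.31 over the 40 members and 0.0019 over all tested genes. The value was below 0 for 38 of 40 members, and POLR1D and MYC were the exceptions. RNA from bulk cultures gives relative levels, so fewer cells of a kind and less of an RNA per cell cannot be told apart.

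Single libraries weighed on these counts. Both cadmium libraries lay below both controls for 30 members, where 30.8% of all tested genes did, and above both for 1, where 31.3% did. Cadmium replicate 1 had the lower CPM of the cadmium pair for 34 of 40 members, and for 50.4% of all tested genes. Without it 2 members (RRP1 and RRS1) passed, and without cadmium replicate 2 there were 9. Leaving out control replicate 1 left 11, and leaving out control replicate 2 gave 22. The median over members was -0.19 without cadmium replicate 1 and between -0.38 and -0.24 without each of the other libraries.

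**Figure D1:**
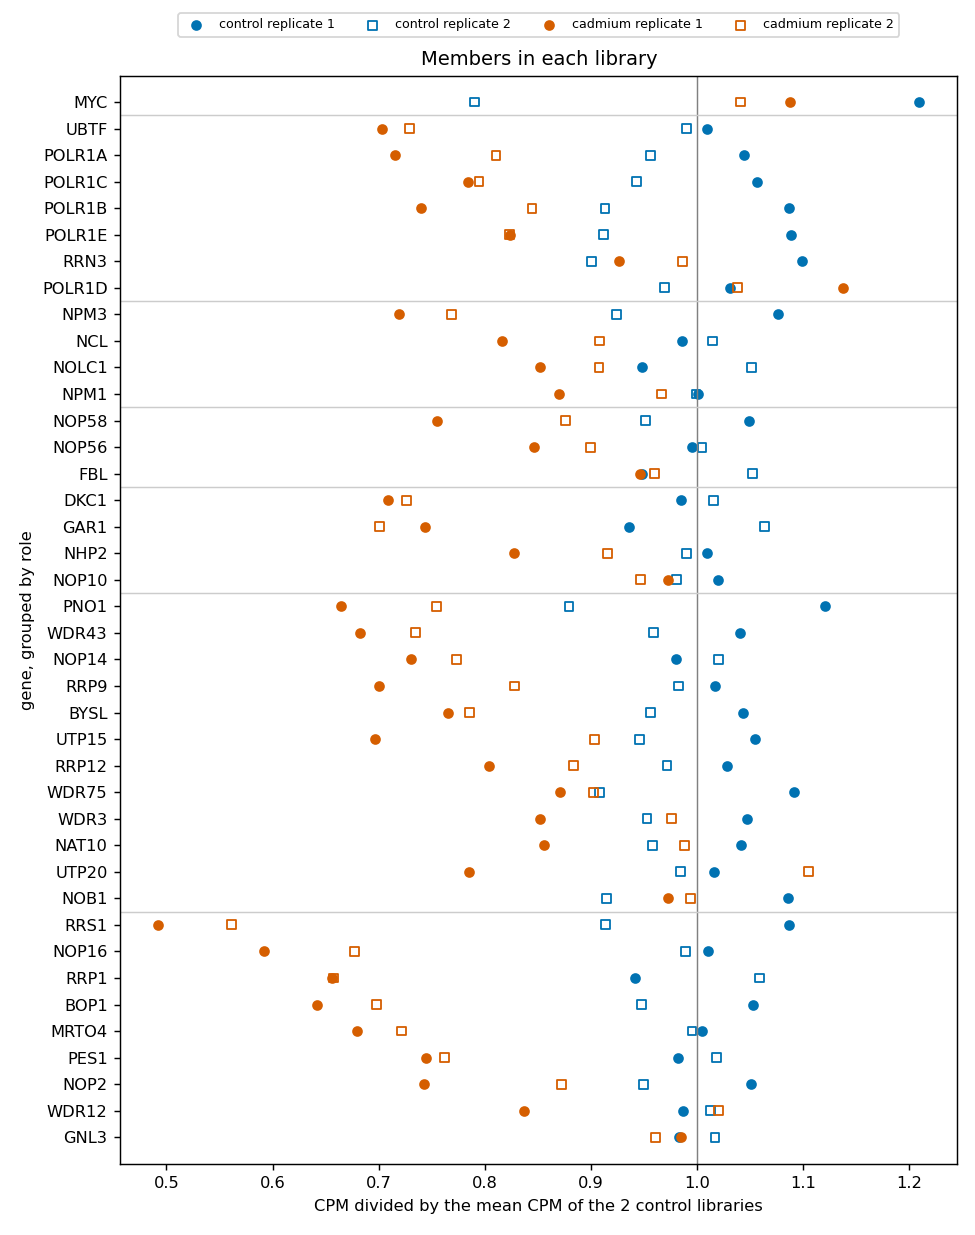
CPM of each member in each of the 4 libraries, divided by the mean of the 2 controls (horizontal axis, no unit), with genes grouped by role. Blue marks the controls and orange the cadmium libraries, and circles and squares mark replicates 1 and 2. RRS1, NOP16, RRP1 and BOP1 show both cadmium libraries far below both controls, whereas the controls of MYC enclose its cadmium libraries.

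Transcript level was read beside these counts, because abundant genes were called lower more often. Tested genes were split into 4 groups of equal size by RPKM (reads scaled to library size and gene length), a unit in which genes can be compared. The highest level group, above 24.2 RPKM, held 25 members, and 11 of these fell. In that group 19.2% of all tested genes were called lower, with a median log2 fold change of -0.14, against -0.29 for the members in it. A further 12 members were in the next level group, where 5 fell and 8.11% of all tested genes did. None of the 3 members in the group below that passed. Across all 13663 tested genes the log2 fold change followed mean RPKM with a Spearman rho of -0.38, a description over genes of the same 4 libraries. Within the 40 members rho was 0.018. Scaling that depends on level gave 13 members lower and a members' median of -0.26.

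Length of transcript moved with the fold change as well. Length was derived from counts and RPKM, and tested genes were again split into 4 equal groups. In the shortest group the median log2 fold change was -0.10 and 13.1% of genes were called lower, against 0.10 and 3.19% in the longest. Members numbered 13, 15, 7 and 5 from the shortest to the longest group, and 6, 6, 2 and 2 of them fell. The part of level and length in the members' falls was not tested.

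**Figure D2:**
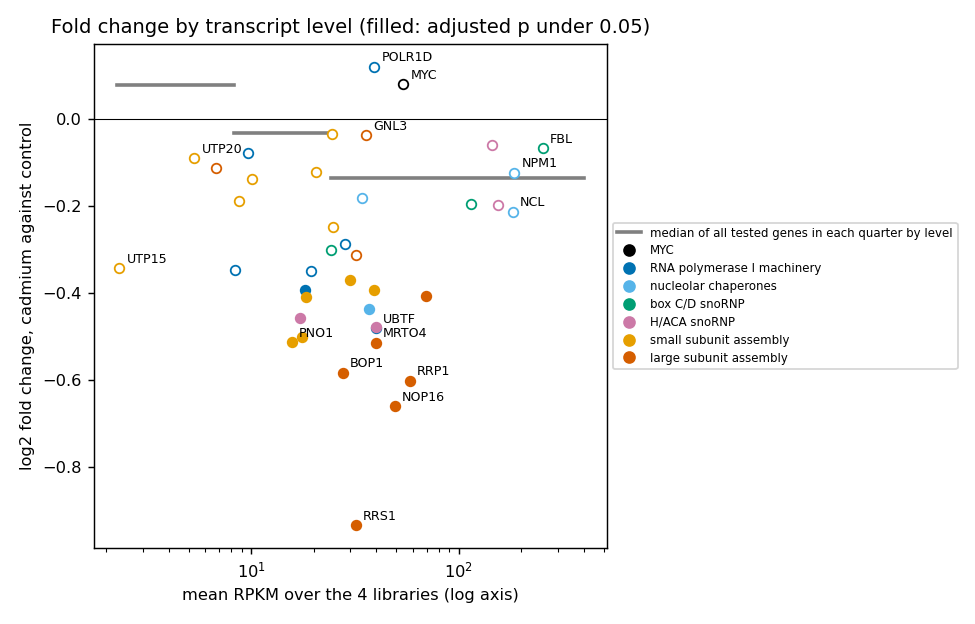
Log2 fold change of each member (vertical axis) against its mean RPKM over 4 libraries (horizontal log axis), coloured by role and filled where the edgeR adjusted p was under 0.05. Grey lines give the median of all tested genes in the 3 higher level groups (0.078, -0.033 and -0.14), and most members lie below the line of their group.

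The starts of these genes were examined for the E-box CACGTG, the palindromic sequence bound by MYC with MAX and by other factors of the same class. RefSeq promoter windows (GRCh38.p14, 250 bases before to 50 after a gene's start) were matched for 33 of the 40 symbols, some with more than 1 start, 40 windows in all. The motif was present in at least 1 window of 14 of the 33 genes (42.4%). It was present in 7.26% of all 35116 windows and in 9.27% of the 14493 windows of tested genes. Of 15 matches, 14 lay within 50 bases of the start. Among the 33 genes the motif was found in 8 of the 14 that fell and in 6 of the 19 that did not pass, and the difference was not tested. Searches covered both strands, and no motif contains another. CACGCG, a related variant, was found in 13 of the 33 genes (39.4%), in 11.4% of all windows and in 17.2% of those of tested genes. CCGGAAGT, a site of ETS factors, was found in 5 of the 33 (15.2%), in 4.14% of all windows and in 7.22% of those of tested genes. TATAAA was found in 1 of the 33, in 11.5% of all windows and in 6.02% of those of tested genes. A gene with several windows had more chances of a match than a single window.

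Windows of 150 bases, from 120 before the start to 30 after it, are shown for 3 genes that fell and hold the E-box (MRTO4, WDR43 and PES1), for RRP1, which fell and holds none, and for FBL, which holds it and did not pass. Each is printed 5′ to 3′ on the strand of its gene, with the E-box in capitals. MRTO4 lies on the plus strand at chr1:19251685-19251834, WDR43 on the plus strand at chr2:28894547-28894696, PES1 on the minus strand at chr22:30591881-30592030, RRP1 on the plus strand at chr21:43789457-43789606 and FBL on the minus strand at chr19:39846350-39846499, all in GRCh38.p14.
MRTO4: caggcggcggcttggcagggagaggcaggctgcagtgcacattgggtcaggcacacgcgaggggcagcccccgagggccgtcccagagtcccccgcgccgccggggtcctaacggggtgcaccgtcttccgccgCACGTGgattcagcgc
WDR43: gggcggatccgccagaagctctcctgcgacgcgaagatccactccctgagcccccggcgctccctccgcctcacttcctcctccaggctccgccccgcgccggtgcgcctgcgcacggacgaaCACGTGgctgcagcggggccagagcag
PES1: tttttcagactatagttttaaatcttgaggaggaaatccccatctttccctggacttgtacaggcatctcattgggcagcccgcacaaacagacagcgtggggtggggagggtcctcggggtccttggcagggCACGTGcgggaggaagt
RRP1: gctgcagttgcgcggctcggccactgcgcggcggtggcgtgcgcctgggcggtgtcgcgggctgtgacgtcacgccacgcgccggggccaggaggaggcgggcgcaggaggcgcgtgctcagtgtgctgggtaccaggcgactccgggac
FBL: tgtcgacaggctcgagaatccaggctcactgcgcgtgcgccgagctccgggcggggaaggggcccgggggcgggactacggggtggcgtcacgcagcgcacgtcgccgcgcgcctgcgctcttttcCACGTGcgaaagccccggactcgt
The E-box began at base 15 for MRTO4, base 4 for WDR43, base 14 for PES1 and base 7 for FBL, counting the start as base 1. A match describes letters in a window, and binding was not measured here.

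MYC was the member with the widest spread between controls. It had 4429 and 936 reads in control, or 170 and 111 CPM, and 153 and 146 CPM with cadmium (4686 and 2314 reads). The cadmium libraries lay between the controls, and the log2 fold change was 0.080 (SE 0.19, edgeR adjusted p = 0.814). Its direction turned on which control was kept. The value was 0.43 (adjusted p = 0.0172) without control replicate 1 and -0.19 (adjusted p = 0.152) without control replicate 2. MYC (chromosome 8, 128748316 to 128753680 in hg19) ranked 10th of the 40 by RPKM in control, at 51.8 ± 15.4 RPKM (SD, n = 2), and 56.3 ± 2.21 RPKM with cadmium.

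Of the 7 genes of RNA polymerase I and its factors, UBTF and POLR1A fell and 5 did not pass. UBTF (chromosome 17, 42282402 to 42298994 in hg19), the architectural factor that binds ribosomal DNA, had 252 and 247 CPM in control and 175 and 182 CPM with cadmium. Its replicates were close to each other in both groups, and it fell (log2 fold change -0.48, SE 0.077, adjusted p = 0.00904). POLR1A, the largest subunit and part of the catalytic centre, had 161 and 148 CPM in control and 111 and 125 CPM with cadmium, and fell by 0.39 (SE 0.096, adjusted p = 0.0294). Without cadmium replicate 1 neither passed, and the adjusted p of UBTF was then 0.0588.

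The second-largest subunit gene POLR1B had 59.9 and 50.3 CPM in control and 40.8 and 46.6 CPM with cadmium. POLR1C, a subunit shared with RNA polymerase III, stood at 34.3 and 30.6 CPM and then at 25.5 and 25.8 CPM. POLR1E was measured at 71.4 and 59.8 CPM in control and at 54.1 and 54.0 CPM with cadmium. For these 3 genes both cadmium libraries were below both controls, as in 30.8% of all tested genes. Their edgeR adjusted p lay between 0.0733 and 0.107. The gene POLR1D, which like POLR1C belongs to polymerases I and III, had 46.6 and 43.8 CPM in control and 51.4 and 46.9 CPM with cadmium (log2 fold change 0.12, adjusted p = 0.462). It was the member whose cadmium libraries both lay above the controls. RRN3, the initiation factor that recruits the polymerase, had 46.2 and 37.9 CPM in control and 39.0 and 41.5 CPM with cadmium, with overlapping groups. RRN3 has near-identical pseudogene copies with rows of their own, of which RRN3P3 had 206, 64, 183 and 85 reads, and PDXDC1 overlaps RRN3 on the opposite strand, so its count is uncertain.

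Among the 4 nucleolar chaperones and scaffold proteins, NPM3 fell and NCL, NPM1 and NOLC1 did not pass. NPM3, a relative of nucleophosmin, had 45.5 and 39.1 CPM in control and 30.4 and 32.5 CPM with cadmium, and fell by 0.44 (SE 0.12, adjusted p = 0.0400). NCL, which encodes nucleolin, had 595 and 612 CPM in control and 493 and 548 CPM with cadmium (log2 fold change -0.21, adjusted p = 0.109). NPM1, which encodes nucleophosmin, had 297 and 297 CPM in control and 258 and 287 CPM with cadmium (-0.12, adjusted p = 0.335). In all 4 genes both cadmium libraries were below both controls, as in 30.8% of all tested genes. NPM3 kept its direction but missed the threshold under 8 of the 13 alternatives run for each gene, DESeq2 among them.

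Box C/D snoRNPs guide methylation of ribosomal RNA, and 3 of their core genes were among the members. Of these, 0 passed with edgeR, DESeq2 or limma-voom, while 2 had an unadjusted p under 0.05. FBL, the methyltransferase fibrillarin, had 326 and 362 CPM in control and 325 and 330 CPM with cadmium, with groups that overlap. NOP56 had 285 and 287 CPM in control and 242 and 257 CPM with cadmium, and NOP58 62.3 and 56.5 CPM and then 44.9 and 52.1 CPM. In both scaffold genes the cadmium libraries lay below the controls, as in 30.8% of all tested genes. The edgeR adjusted p was 0.117 for NOP56 and 0.101 for NOP58. With level-dependent scaling the log2 fold change of FBL turned from -0.068 to 0.037.

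H/ACA snoRNPs guide the conversion of uridine to pseudouridine, and of their 4 core genes DKC1 and GAR1 fell. DKC1 (chromosome X, 153991018 to 154005964 in hg19), the pseudouridine synthase dyskerin, had 135 and 140 CPM in control and 97.4 and 99.7 CPM with cadmium. It fell by 0.48 (SE 0.083, adjusted p = 0.0105), with a gap between groups several times the difference within either. GAR1 had 27.0 and 30.6 CPM in control and 21.4 and 20.2 CPM with cadmium, and fell by 0.46 (SE 0.13, adjusted p = 0.0420). NHP2 had 163 and 160 CPM in control and 133 and 148 CPM with cadmium (adjusted p = 0.147). NOP10, the smallest protein of the complex, had 91.8 and 88.3 CPM and then 87.6 and 85.3 CPM (log2 fold change -0.061, adjusted p = 0.667). GAR1 missed the threshold under 7 of 13 alternatives. The 4 partners of this complex ranged from -0.48 to -0.061, and differences among them were not tested.

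Of 12 small subunit assembly genes 5 fell: PNO1, WDR43, NOP14, RRP9 and BYSL. PNO1, which acts with the nuclease NOB1 at the 3′ end of 18S ribosomal RNA, had 46.3 and 36.3 CPM in control and 27.5 and 31.2 CPM with cadmium, and fell by 0.51 (SE 0.14, adjusted p = 0.0420). NOB1 itself had 52.4 and 44.2 CPM in control and 47.0 and 48.0 CPM with cadmium (log2 fold change -0.035, adjusted p = 0.860). WDR43, a component of the early processome, had 84.9 and 78.2 CPM in control and 55.6 and 59.96 CPM with cadmium, and fell by 0.50 (SE 0.098, adjusted p = 0.0144). The cadmium values of PNO1 and WDR43 were all below those of the controls, while the cadmium values of NOB1 lay between its controls.

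NOP14 had 78.7 and 81.9 CPM in control and 58.7 and 62.1 CPM with cadmium, a fall of 0.41 on the log2 scale. RRP9, a protein of the U3 snoRNP, had 81.0 and 78.2 CPM and then 55.7 and 65.9 CPM (fall of 0.39), and BYSL, needed for late 40S maturation, 79.7 and 73.0 CPM and then 58.4 and 59.96 CPM (fall of 0.37). These 3 genes had adjusted p values of 0.0227, 0.0421 and 0.0342, and in each both cadmium libraries were below both controls. RRP9 and BYSL each missed the threshold under 7 of 13 alternatives, and PNO1 under 6. NOP14-AS1, with 142, 58, 162 and 85 reads, overlaps NOP14 on the opposite strand, and strand use in counting was not stated. The other 7 genes, among them UTP15, UTP20, NAT10 and RRP12, had log2 fold changes from -0.34 to -0.035. UTP20 had 56.8 and 54.97 CPM in control, 43.9 CPM in cadmium replicate 1 and 61.7 CPM in cadmium replicate 2, on either side of the controls.

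The large subunit assembly genes had the lowest median of the 7 role groups, -0.51, with 6 of 9 lower. The difference between groups was not tested. RRS1 (chromosome 8, 67341264 to 67342968 in hg19), which helps to bring the 5S ribosomal RNA particle into the pre-60S subunit, had 2294 and 624 reads in control and 1223 and 720 with cadmium. These are 88.1 and 74.1 CPM in control and 39.9 and 45.5 CPM with cadmium, so that RRS1 was 47.7% lower (log2 fold change -0.93, SE 0.12, adjusted p = 0.00483). Of the 1046 genes called lower, 59 fell further. RRS1 and RRP1 passed the threshold under all 13 alternatives.

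NOP16 (chromosome 5, 175813026 to 175815763 in hg19), a nucleolar protein of the pre-60S particle, had 69.1 and 67.7 CPM in control and 40.5 and 46.3 CPM with cadmium, and fell by 0.66 (SE 0.11, adjusted p = 0.00886). RRP1 (chromosome 21, 45209419 to 45223983 in hg19), a processing factor of the large subunit RNA, had 136 and 153 CPM in control and 94.6 and 94.8 CPM with cadmium, and fell by 0.60 (SE 0.091, adjusted p = 0.00741). In RRP1 the cadmium replicates were nearly equal, and the spread was in the controls. MRTO4, which resembles the ribosomal stalk protein P0 and holds its place during assembly, had 121 and 120 CPM in control and 82.0 and 87.1 CPM with cadmium (fall of 0.51, SE 0.086, adjusted p = 0.00986).

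PES1, BOP1 and WDR12 form the PeBoW complex, which is needed to process the large subunit RNA. BOP1 had 93.9 and 84.5 CPM in control and 57.3 and 62.2 CPM with cadmium, and fell by 0.58 (SE 0.10, adjusted p = 0.0104). PES1 had 203 and 211 CPM in control and 154 and 158 CPM with cadmium, and fell by 0.41 (SE 0.079, adjusted p = 0.0142). WDR12 had 17.9 and 18.4 CPM in control and 15.2 and 18.5 CPM with cadmium, a change of -0.11 on the log2 scale that did not pass (SE 0.15, adjusted p = 0.642). The groups of WDR12 overlap, and its count was the lowest of the 3, with 155 to 467 reads per library. NOP2, a methyltransferase of the large subunit RNA, did not pass (-0.31, adjusted p = 0.0790). GNL3, which encodes nucleostemin, had 82.4 and 85.3 CPM in control and 82.6 and 80.5 CPM with cadmium (-0.038, adjusted p = 0.803).

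**Figure D3:**
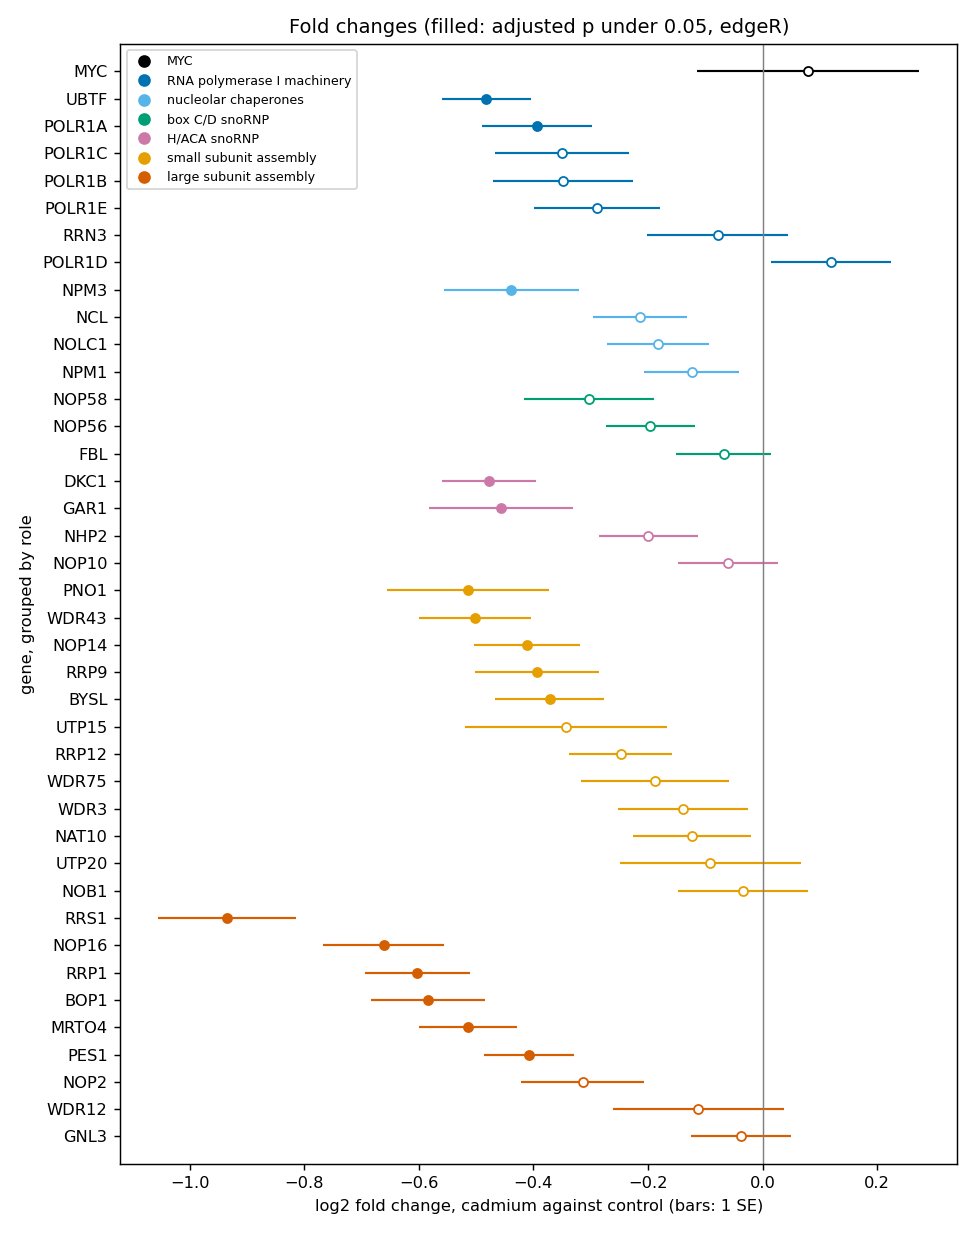
Log2 fold change of each of the 40 members, cadmium against control, with bars of 1 SE, coloured by role and filled where the edgeR adjusted p was under 0.05. RRS1 at -0.93 lies farthest from 0, and the 6 filled large subunit genes run from -0.93 to -0.41.

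Levels of the members covered a wide range. By mean RPKM in control the order began with FBL (257), NCL (194), NPM1 (191), NHP2 (165), NOP10 (147) and NOP56 (122), and ended with WDR12 (6.94), UTP20 (5.40) and UTP15 (2.53). The values of NCL and NPM1 differed by less than the spread of NCL between controls (SD 3.90, n = 2). Summed over the 40 genes, RPKM was 2133 and 2093 in control and 1791 and 1872 with cadmium. For large subunit assembly genes the sums were 408 and 404 RPKM in control and 287 and 302 RPKM with cadmium. Those for box C/D genes were 392 and 418 RPKM and then 376 and 385 RPKM.

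In the files' coordinates 6 of the 40 genes (NCL, NOP56, NOP58, DKC1, WDR43 and GNL3) contain 18 small nucleolar RNA genes on their own strand. DKC1 and WDR43 are the 2 of these 6 that fell. The rows of these small RNAs had few reads, with the most for SNORD86 inside NOP56, at 111, 40, 70 and 26 reads.

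The authors' deposited table gives 15 of the 40 members a lower value at an adjusted p under 0.05, and 0 a higher one. Of the 12807 genes behind the adjustment in the authors' deposited table, 7.79% are lower at that threshold. All 15 are among the 16 that fell with edgeR. The log ratio in the authors' deposited table, read as log2, is -0.85 for RRS1 and 0.11 for POLR1D, the ends of its range over the members.

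Further genes of the pathway were taken from lists of textbook membership, chosen with earlier results of these data known. Of 151 tested genes in 5 lists (polymerase I factors, snoRNP assembly, small subunit, large subunit, and nucleolar helicases with the exosome), 26 fell (17.2%) and 1 rose. Across all tested genes 7.66% were called lower and 8.85% higher, and in the highest level group 19.2% were lower. The median log2 fold change of the 151 was -0.20, and 129 of their values were below 0. Over all tested genes the median was 0.0019 and 49.8% of values were below 0. The falls were between 0.34 and 0.56 on the log2 scale. Among 19 further polymerase I factors 4 fell, led by POLR2E, a subunit common to the 3 nuclear polymerases, by 0.51 (adjusted p = 0.00697). PTRF, which acts in polymerase I release and also builds caveolae, fell by 0.48, and POLR2L by 0.43. The other was POLR2F (by 0.35), which like POLR2E and POLR2L is common to the 3 polymerases. The polymerase I factors TAF1A, TAF1B, TAF1C, TAF1D, TTF1, TWISTNB, CD3EAP and ZNRD1 did not pass (log2 fold changes from -0.38 to 0.17). None of the 19 factors rose with edgeR or limma-voom, 1 did with DESeq2, and 1 rose at an unadjusted p under 0.05.

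Of 45 further small subunit factors 7 fell (15.6%), where 7.66% of all tested genes and 19.2% of the highest level group did. TSR3, which modifies 18S ribosomal RNA, had 113 and 113 CPM in control and 80.2 and 73.1 CPM with cadmium. TSR3 fell by 0.56 (adjusted p = 0.00926), FAM207A by 0.53 and IMP3, a U3 snoRNP protein, by 0.53. Of 45 further large subunit factors 8 fell (17.8%) and NPM2 rose by 0.79 (adjusted p = 0.0247), from 6.22 and 7.48 CPM to 12.1 and 11.1 CPM. The largest falls there were EBNA1BP2 by 0.51, NIP7 by 0.50 and SBDS, which releases the anti-association factor from new 60S subunits, by 0.47. Among 27 helicase and exosome genes 6 fell (22.2%), with EXOSC4 by 0.52, EXOSC6 by 0.48 and DDX51 by 0.47. NSUN5, which methylates large subunit RNA, fell by 0.48 and was the 1 of 15 snoRNP assembly and modification genes that passed (6.67%).

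RNA polymerase III makes 5S ribosomal RNA and transfer RNA, and 4 of its 21 genes fell (19.0%, where 7.66% of all tested genes did). POLR3B, its second-largest subunit, had 24.2 and 23.2 CPM in control and 13.9 and 15.9 CPM with cadmium, and fell by 0.67 (adjusted p = 0.0163). GTF3C6 fell by 0.59 and POLR3C by 0.55. Without cadmium replicate 1, 0 of the 21 were lower, and without cadmium replicate 2 there were 2. The same omissions left 1 and 2 of the further polymerase I factors, 1 and 4 of the small subunit genes, 0 and 2 of the large subunit genes and 0 and 2 of the helicase and exosome genes. Without control replicate 2 the small subunit count was 16 and the large subunit count 15, and without control replicate 1 they were 6 and 4.

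The list of the MAX network holds transcription factors that pair with MAX or its relative MLX, among them partners and rivals of MYC, and a few other proteins that bind MYC or mark it for destruction. Of 15 tested genes 2 rose with edgeR (13.3%, where 8.85% of all tested genes did). The count was 1 with DESeq2, 4 with limma-voom, and 1 each with the replicate block and with counts thinned to equal depth. None fell with edgeR, DESeq2 or limma-voom, and 1 (MYCBP) was lower at an unadjusted p under 0.05. MXI1, which competes with MYC for MAX, had 11.8 and 15.4 CPM in control and 39.7 and 35.4 CPM with cadmium, and rose by 1.499 (SE 0.15, adjusted p = 0.00283). MLXIPL, a glucose-responsive factor of the network, had 0 and 4 reads in control and 132 and 36 with cadmium (adjusted p = 0.0222). Its control level is too low for a fold to be read. MAX itself, named after its value was seen, did not pass (log2 fold change -0.092, adjusted p = 0.604). Without cadmium replicate 1, and likewise without cadmium replicate 2, 1 of the 15 was higher, and without control replicate 2 there were 4.

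Of 23 tested genes reported elsewhere as MYC targets, 5 fell (21.7%) and 1 rose (4.35%). Across all tested genes the shares were 7.66% and 8.85%. The 5 that fell were all in the highest level group, where 19.2% of all tested genes were lower. The median log2 fold change of the 23 was -0.13, and 9 values were above 0. ODC1, the first enzyme of polyamine synthesis, had 180 and 159 CPM in control and 102 and 113 CPM with cadmium, and fell by 0.66 (SE 0.097, adjusted p = 0.00704). TFRC fell by 0.67 (adjusted p = 0.0410), NME1 by 0.50, and LDHA, also a target of the hypoxia response, rose by 0.43 (adjusted p = 0.0393). With level-dependent scaling, or without cadmium replicate 1, 1 of the 23 was lower.

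**Figure D4:**
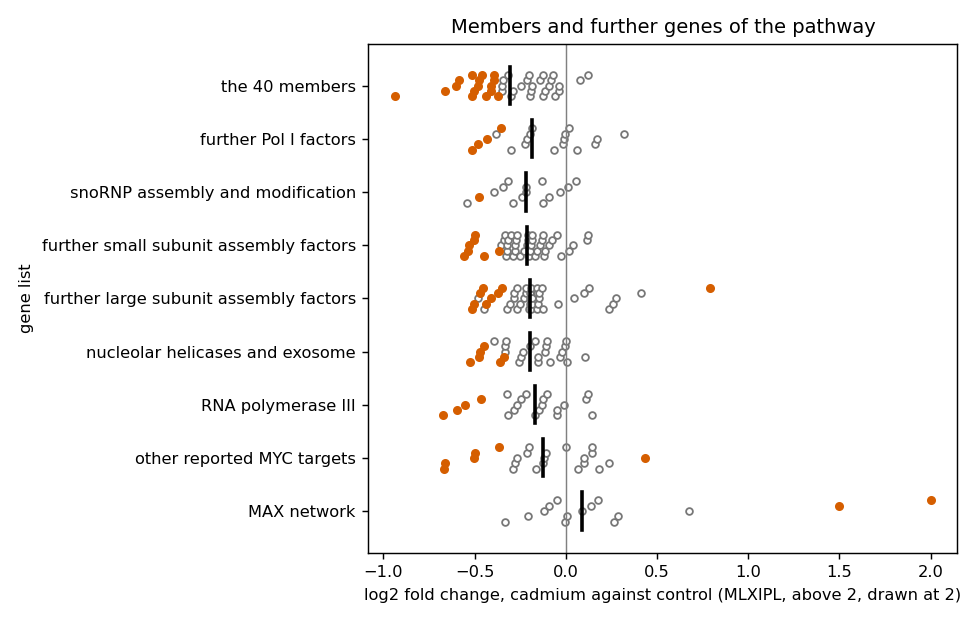
Log2 fold change, cadmium against control, of the 40 members and of 8 further gene lists. Each point is 1 tested gene, orange where the edgeR adjusted p was under 0.05, and black bars are list medians. The members' median is -0.31, the medians of the 5 ribosome biogenesis lists lie between -0.22 and -0.19, and that of the MAX network is 0.088.

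The number of members past the threshold ranged from 2 to 22 over the settings tried, and stayed between 11 and 19 wherever all 4 libraries and an adjusted p of 0.05 were used.

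**Figure D5:**
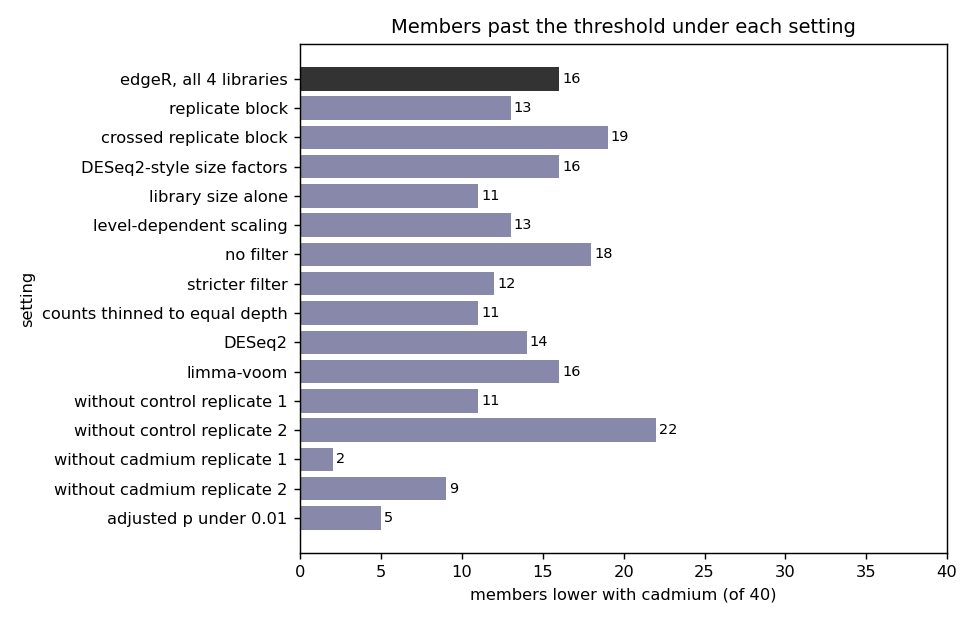
Number of the 40 members lower with cadmium (horizontal axis) under each setting of the analysis (vertical axis), the dark bar being edgeR with all 4 libraries (16). The shortest bars are those without cadmium replicate 1 (2) and at an adjusted p under 0.01 (5).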

How the data were processed

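RNA-seq of 2 control and 2 cadmium-treated BEAS-2B libraries was used, grouped by the labels. The authors deposited read counts per RefSeq gene for each library, with the authors' RPKM and gene coordinates beside them. The authors' deposited comparison table gives p-values and a log ratio whose base is not named and which was read as log2. The submitters' processing notes name STAR 2.4, DESeq2, DESeq and the build hg19 (GRCh37) without their roles. Neither the read counter, nor the annotation release, nor whether counting used strand was found there (not given in the sources used here). Columns of per-sample values left out numbered 0.

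Counts were fitted with edgeR 4.0.16 in R 4.3.3 (robust quasi-likelihood test, filterByExpr, TMM scaling) over 13663 genes, with Benjamini-Hochberg adjustment over all of them and a threshold of 0.05. CPM are reads scaled to library size after TMM. The procedure was tested on simulated data. DESeq2 1.42.0, limma-voom (limma 3.58.1), other scalings, other filters, thinned counts, a replicate block and omission of each library were alternatives. Replicates of a group differed by more than sampling noise (chi-square per gene 11.3 in control and 7.35 with cadmium). Whether the shared replicate numbers pair the libraries was not settled, and no block was used in the main fit. Deviations of same-numbered libraries correlated at -0.14 over the 13663 genes. That value cannot decide pairing, because with so few libraries the deviations within a group mirror each other.

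Values per library are given for MYC, the polymerase I and snoRNP members, and each member past the threshold. From each further list, up to 3 genes past the threshold with the largest change in each direction are named, most by fold change alone. Other members named with values were picked after their values were seen. The 40 members and the lists were chosen with earlier results of these data known. Promoter sequences are from RefSeq on GRCh38.p14, matched by symbol, and gene coordinates are the files' own in hg19.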

Additional observations from a re-analysis of the deposited data

How the results depend on the processing

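The count of 16 members lower became 5 at an adjusted p under 0.01, and ran from 2 to 22 when 1 library was left out, lowest without cadmium replicate 1 and highest without control replicate 2. Members higher ran from 0 to 1 (MYC, without control replicate 1), and the members' median log2 fold change from -0.38 to -0.19. Over all tested genes 1046 were lower and 1209 higher. With library size alone these were 682 and 1445, and the median of all genes moved to 0.060. At an adjusted p under 0.01 they were 149 and 233. Leaving out 1 library gave 235 to 1791 lower and 369 to 1977 higher. The replicate block gave 13 members lower (811 genes lower and 1073 higher), with 13 of the main 16 among them. A block with the numbers crossed, chosen after seeing the data, gave 19 (1471 and 1551). The sign turned for FBL (0.037 with level-dependent scaling), NOP10 (0.010 with level-dependent scaling) and GNL3 (0.021 with library size alone, 0.030 with level-dependent scaling, 0.00077 with at least 5 CPM required in 2 libraries). It also turned for NOB1 (0.023 with library size alone, 0.0032 with that CPM filter). Leaving out 1 library moved NOB1 from -0.15 to 0.10, FBL from -0.14 to 0.00035, RRN3 from -0.21 to 0.084, MYC from -0.19 to 0.43, UTP20 from -0.35 to 0.15, WDR12 from -0.25 to 0.035 and the MAX network median from -0.0055 to 0.13. The cause was not tested. For 31 members the sign was negative under all 13 alternatives. Control replicate 2 was the shallowest library, and 3 reads there correspond to 0.356 CPM.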

Other observations

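Genes of cell division, which in growing cells often move with ribosome production, were examined as a further list. Of 17 tested, 7 fell (41.2%), 15 had values below 0, and the median log2 fold change was -0.20. Across all tested genes 7.66% fell and 49.8% had values below 0. All 17 were in the highest level group, where 19.2% of all tested genes fell and the median log2 fold change was -0.14. PLK1, a mitotic kinase, had 484 and 463 CPM in control and 290 and 280 CPM with cadmium, and fell by 0.73 (SE 0.0765, edgeR adjusted p = 0.00307). AURKA, another mitotic kinase, fell by 0.64 (adjusted p = 0.00626) and CCNB1, the cyclin that starts mitosis, by 0.51. Of the 6 genes of DNA replication and nucleotide supply in the list, a grouping made after their values were seen, TYMS fell (adjusted p = 0.0490). The other 5 (MCM2, MCM3, MCM5, PCNA and RRM2) had log2 fold changes between -0.20 and 0.037 and did not pass. Outside this grouping, MKI67, TOP2A, CDK1, BUB1 and AURKB did not pass either, with log2 fold changes between -0.29 and 0.060. A difference between replication genes and the rest of the list was not tested.

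Free ribosomal proteins RPL5 and RPL11 are known to bind MDM2, the ligase that marks p53 for destruction, when ribosome assembly is disturbed. Of 9 genes of this link, MDM2 and CDKN2A fell (22.2%, where 7.66% of all tested genes did). MDM2 had 106 and 88.2 CPM in control and 68.7 and 68.2 CPM with cadmium, and fell by 0.51 (adjusted p = 0.0183). CDKN2A, whose ARF product restrains MDM2, had 424 and 497 CPM in control and 343 and 333 CPM with cadmium, and fell by 0.44 (adjusted p = 0.0182). CDKN1A, a p53 target named after its value was seen, had 307 and 172 CPM in control and 199 and 127 CPM with cadmium, with groups that overlap (adjusted p = 0.464).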
